A study of Homo sapiens with 12 samples.

Results

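The FOS and JUN families encode the subunits of AP-1, a transcription factor that works as a pair of basic leucine zipper proteins. The 8 genes described here are FOS, FOSB, FOSL1 and FOSL2 of the FOS family, JUN, JUNB and JUND of the JUN family, and ATF3, a related zipper protein that can pair with JUN proteins. They were taken by symbol from the 39368 gene symbols counted in CAL27 and HSC3 cells, and all 8 passed the filter on low counts in both lines. The family was chosen because FOSL1 had the largest increase with DOX in CAL27 cells among well-counted genes whose libraries did not overlap (log2 CPM averaging 3 or more). That log2 fold change was 2.09, and the next genes were SEMA7A at 2.05 and CPA4 at 2.02. The CAL27 values of the 8 genes are therefore given as a description with no test, and tests are given for HSC3 cells.

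FOS proteins cannot pair with each other and bind DNA as partners of JUN proteins, whereas JUN proteins can also pair among themselves. The pairs bind motifs that match the pattern TGANTCA, with N for any base, and pairs with ATF proteins prefer TGACGTCA. FOS, FOSB, JUN, JUNB and ATF3 are immediate early genes that growth factor, cytokine and stress signals switch on within minutes through the MAPK kinases. FOSL1 and FOSL2 are induced later and lack the strong activation domain of FOS. FOSL1, whose protein is called FRA-1, is known in squamous carcinoma cells for its links with ERK signaling, invasion and matrix proteases.

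The lines were CAL27/tet-MUC1shRNA as well as HSC3/tet-MUC1shRNA, profiled by bulk RNA-seq, which are 2 derivatives of established HPV-negative HNSCC lines and carry a doxycycline-inducible shRNA against MUC1 and were selected with puromycin. Each line was treated for 7 days with vehicle (0.1% DMSO) or with 500 ng/ml DOX, and 3 libraries from cells cultured in triplicate were made for each of the 4 groups. CAL27 cells were grown in DMEM and HSC3 cells in MEM, so cell line and medium cannot be told apart. No library from DOX-treated cells with a control shRNA was analysed here, so silencing of MUC1 cannot be told apart from other effects of DOX or of shRNA expression, and whether the transduced cells were a clone or a pool is not given in the sources used here. Levels are given as CPM, counts scaled to library size and normalized by edgeR's TMM method within each line, as joint CPM where all 12 libraries were normalized together, and as joint CPM per kb where genes are compared. In such bulk libraries fewer cells of a type and less RNA per cell cannot be told apart.

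The libraries held 89730914 to 169065103 counts. Totals were highest with DOX in HSC3 cells, from 134231542 to 169065103, yet there were counts on only 19128 to 20910 genes against 23707 to 24685 in CAL27 cells. Each molecule was estimated to have given 2.45 to 3.33 counts in CAL27 libraries, 4.18 to 7.43 in HSC3 vehicle libraries and 8.93 to 17.2 in HSC3 DOX libraries, so low counts in HSC3 cells stand for few molecules. HSC3 DOX replicate 1 stood apart, with a chi-square per degree of freedom of 119 and 79.6 against the other 2 libraries of its group and 6.35 to 24.3 among all other replicate pairs. Mitochondrial genes took 5.94% to 6.51% of the counts in HSC3 vehicle libraries and 7.58% to 9.63% in HSC3 DOX libraries, without overlap and highest in DOX replicate 1, and 6.39% to 7.82% and 6.43% to 8.23% in the CAL27 groups. The part of this share in the HSC3 changes given here, of AP-1 genes and of the lists, was not tested. MUC1, the target of the shRNA, went from 60.9 ± 2.61 to 3.28 ± 0.274 CPM in CAL27 cells (SD, n = 3) and from 1.60 ± 0.161 to 0.214 ± 0.0834 CPM in HSC3 cells (SD, n = 3). The HSC3 levels stand on 162 to 196 counts with vehicle and 16 to 46 counts with DOX, thus on few molecules. The HSC3 log2 fold change was -2.88 (standard error 0.38). All DOX libraries lay below all vehicle libraries in both lines. Squamous markers were abundant in both lines, and fibroblast, immune and endothelial markers summed to at most 16.8 CPM in any library for any of these 3 lists. The genes COL3A1 in both lines and CD3E and NKG7 in HSC3 cells had 0 counts in every library.

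FOSL1 (GRCh38 chr11:65892049-65900573, minus strand, GENCODE v44) had the largest log2 fold change of the 8 genes in CAL27 cells and changed in the opposite direction in HSC3 cells. In CAL27 cells its level was 52.3, 50.4 and 43.3 CPM in the vehicle libraries and 196, 202 and 224 CPM in the DOX libraries. All DOX libraries were thus far above all vehicle libraries, at 4.26-fold (log2 fold change 2.09, standard error 0.077), and 7.48% of all genes tested in CAL27 cells had a log2 fold change above 1 in size. FOSL1 was the only 1 of the 8 genes past that size. In HSC3 cells the level was higher from the start, at 642, 659 and 694 CPM with vehicle, and it was 495, 565 and 574 CPM with DOX. These groups did not overlap either, and here FOSL1 fell (log2 fold change -0.29, standard error 0.069, edgeR quasi-likelihood adjusted p = 0.0094), the only call among the 8 genes against 15.4% of all genes that were called lower in HSC3 cells. Without HSC3 vehicle replicate 3 the adjusted p of this fall was 0.056 and JUND was the only member called, and over its 13 alternatives the adjusted p was 8.2e-04 to 0.056 and the log2 fold change -0.33 to -0.22.

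FOSL2 (GRCh38 chr2:28392448-28417317, plus strand), which encodes FRA-2, had the most even values among libraries. It measured 145, 146 and 144 CPM with vehicle and 114, 112 and 113 CPM with DOX in CAL27 cells. The DOX libraries were all lower there, and the log2 fold change was -0.36 (standard error 0.037). In HSC3 cells FOSL2 measured 152, 150.4 and 153 CPM with vehicle and 162, 161 and 161 CPM with DOX. The DOX libraries were all slightly higher, and the difference did not pass the test (log2 fold change 0.091, standard error 0.054, edgeR adjusted p = 0.26). The promoter window of FOSL2 is shown because it was the only member's window to hold TGANTCA, in capitals, beginning at base 5 counted from the transcript start, in RefSeq sequence of GRCh38.p14 at chr2:28392778-28392877 on the plus strand.
FOSL2: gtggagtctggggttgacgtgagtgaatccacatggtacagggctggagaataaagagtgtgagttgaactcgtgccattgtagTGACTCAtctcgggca
Windows ran from 250 bases before to 50 after each start, and both strands were searched for TGANTCA, TGACGTCA and TGACATCA, which 7.71%, 1.85% and 2.61% of all 35116 windows held. A match is a match of letters and does not show that a protein binds there. Windows were matched for 7 of the 8 genes, all but FOSL1.

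FOS and FOSB, the classical immediate early members, were low in both lines. FOS (chr14:75278826-75282230, plus strand) measured 3.56, 2.85 and 2.33 CPM with vehicle and 4.09, 3.41 and 3.59 CPM with DOX in CAL27 cells, from 256 to 450 counts per library. These groups overlapped, and the log2 fold change was 0.34 (standard error 0.14). In HSC3 cells FOS measured 5.81, 6.01 and 4.27 CPM with vehicle and 4.58, 5.26 and 4.69 CPM with DOX. The groups overlapped again, and no difference was called (log2 fold change -0.14, standard error 0.16, edgeR adjusted p = 0.59). FOSB (chr19:45467995-45475179, plus strand) measured 3.61, 3.11 and 3.07 CPM with vehicle and 3.76, 3.97 and 3.64 CPM with DOX in CAL27 cells, where the DOX libraries were all higher by a narrow margin. Its log2 fold change there was 0.21 (standard error 0.11). FOSB measured 1.57, 1.38 and 1.22 CPM with vehicle and 1.35, 1.80 and 2.86 CPM with DOX in HSC3 cells. The DOX libraries differed more among themselves than the vehicle libraries, and no difference was called (log2 fold change 0.53, standard error 0.29, edgeR adjusted p = 0.22).

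JUN (chr1:58776845-58784048, minus strand), the founding subunit of AP-1, had the second largest increase in CAL27 cells. It measured 7.03, 8.52 and 7.01 CPM with vehicle and 12.97, 13.03 and 12.57 CPM with DOX. The CAL27 groups were well apart, and the log2 fold change was 0.78 (standard error 0.083). JUN measured 56.5, 59.9 and 51.5 CPM with vehicle and 56.4, 73.2 and 63.6 CPM with DOX in HSC3 cells. Here DOX replicate 1 lay inside the range of the vehicle libraries, and the difference did not pass the test (log2 fold change 0.20, standard error 0.10, edgeR adjusted p = 0.17). The JUN and ATF3 windows are shown because both held TGACATCA, in capitals, a variant of TGACGTCA known to bind pairs of JUN and ATF2, at base -67 of JUN and base -123 of ATF3. The stretches are RefSeq GRCh38.p14 chr1:58784062-58784161 on the minus strand and chr1:212565237-212565336 on the plus strand.
JUN: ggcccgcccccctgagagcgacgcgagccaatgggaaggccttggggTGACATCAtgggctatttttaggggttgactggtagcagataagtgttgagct
ATF3: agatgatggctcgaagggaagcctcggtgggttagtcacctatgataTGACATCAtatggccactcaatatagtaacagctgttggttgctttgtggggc

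JUNB and JUND had lower values with DOX in CAL27 cells. JUNB (chr19:12791486-12793315, plus strand), which often opposes JUN in cell growth, measured 75.1, 73.7 and 71.0 CPM with vehicle and 64.5, 56.4 and 56.9 CPM with DOX. All CAL27 DOX libraries were lower, and the log2 fold change was -0.31 (standard error 0.050). In HSC3 cells JUNB measured 101, 92.1 and 86.4 CPM with vehicle and 75.2, 117 and 114 CPM with DOX. DOX replicate 1 lay below all vehicle libraries and the other 2 DOX libraries above them, and no difference was called (log2 fold change 0.14, standard error 0.14, edgeR adjusted p = 0.55). Of the JUNB exons, 14.2% lie under HOOK2 on the opposite strand, and how the counting used strand is not given in the sources used here. JUND (chr19:18279694-18281622, minus strand), which most cells express without a stimulus, measured 42.1, 43.1 and 41.4 CPM with vehicle and 37.9, 31.7 and 29.6 CPM with DOX in CAL27 cells. The DOX libraries were all lower, and the log2 fold change was -0.35 (standard error 0.073). JUND measured 33.3, 41.6 and 30.9 CPM with vehicle and 28.3, 30.2 and 26.8 CPM with DOX in HSC3 cells. The groups did not overlap there, but the difference missed the threshold (log2 fold change -0.31, standard error 0.11, edgeR adjusted p = 0.062). JUND is the member whose HSC3 call depended most on the analysis, with an adjusted p of 0.023 to 0.30 over 13 alternatives. Its window is shown because it held TGACGTCA, in capitals, at base -200, in RefSeq GRCh38.p14 chr19:18281770-18281869 on the minus strand.
JUND: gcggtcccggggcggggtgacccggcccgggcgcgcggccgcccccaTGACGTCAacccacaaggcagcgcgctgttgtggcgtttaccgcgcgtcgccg

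ATF3 (chr1:212565334-212620777, plus strand), a stress-induced gene, had small differences. It measured 7.81, 7.67 and 7.17 CPM with vehicle and 9.20, 9.01 and 8.60 CPM with DOX in CAL27 cells. The DOX libraries were all higher there, and the log2 fold change was 0.24 (standard error 0.079). In HSC3 cells ATF3 measured 6.87, 7.12 and 5.83 CPM with vehicle and 5.74, 7.20 and 8.13 CPM with DOX. The HSC3 groups overlapped and no difference was called (log2 fold change 0.088, standard error 0.16, edgeR adjusted p = 0.74).

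Across the 8 genes the CAL27 groups did not overlap for 7, all but FOS, where 52.4% of all genes tested did not overlap. In HSC3 cells they did not overlap for FOSL1, FOSL2 and JUND, 3 of 8, against 42.6% of all genes. These shares are those of a family chosen on CAL27 cells, and nothing is read from the first. The median log2 fold change of the 8 was 0.23 in CAL27 and 0.090 in HSC3 cells, and over all genes it was -0.0052 and -0.0097. No member passed both an adjusted p under 0.05 and a log2 fold change above 1 in HSC3 cells, where 5.98% of all genes did. Among the HSC3 calls 1 library mattered most. Without HSC3 DOX replicate 1, which stood apart from its group, 5 of the 8 were called, with adjusted p values of 0.029 for FOSB, 0.0033 for JUN, 3.1e-04 for JUNB and 0.023 for JUND beside FOSL1. The log2 fold changes were then 0.75 for FOSB, 0.29 for JUN, 0.31 for JUNB and -0.31 for JUND, and over all alternatives the adjusted p ran from 0.029 to 0.72 for FOSB, from 0.0033 to 0.50 for JUN and from 3.1e-04 to 0.92 for JUNB. How many of all genes were called without DOX replicate 1 was not computed, so nothing is read from the count of 5.

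**Figure D1:**
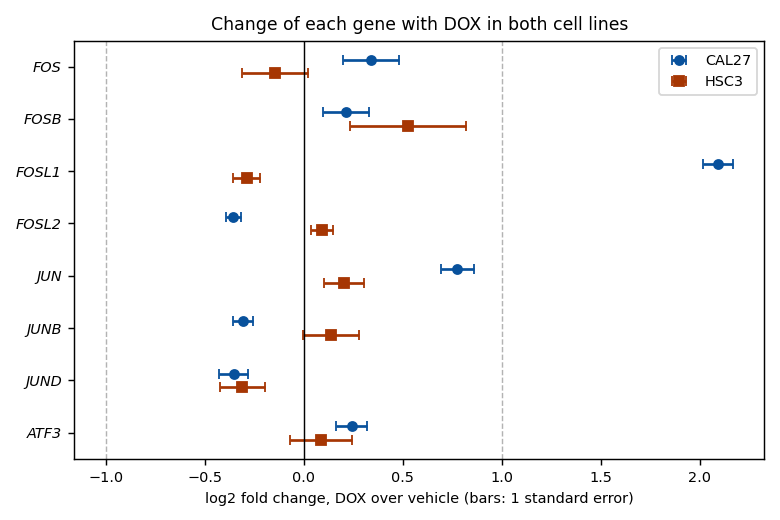
The log2 fold change with DOX over vehicle of each of the 8 genes (x axis) is plotted for CAL27 cells (blue circles) and HSC3 cells (brown squares), with bars of 1 standard error, 3 libraries in each group, and dashed lines at 1 and -1. FOSL1 in CAL27 cells, at 2.09, is the only point beyond a dashed line. The points of FOS, FOSL1, FOSL2 and JUNB lie on opposite sides of 0 in the 2 lines. For FOS and JUNB the bars of HSC3 cells reach across 0.

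The lines differed in the levels of several AP-1 genes before induction. In a fit of all 12 libraries, FOSL1 was at 44.2 joint CPM in vehicle-treated CAL27 and 730.4 joint CPM in vehicle-treated HSC3 cells, a 16.5-fold difference, given with no test because its CAL27 libraries took part in the choice of the family. Of the other 7 genes, 5 differed at an adjusted p under 0.05, as did 62.9% of all genes tested between the lines, so such a difference was common. JUN was 9.02-fold higher in HSC3 cells, at 61.5 against 6.83 joint CPM (log2 difference 3.17, standard error 0.10, edgeR adjusted p = 4.9e-13). FOS was also higher in HSC3 cells, at 5.89 against 2.65 joint CPM (log2 difference 1.15, standard error 0.17, edgeR adjusted p = 2.9e-05). JUNB was higher at 102 against 66.5 joint CPM (log2 difference 0.62, standard error 0.12, edgeR adjusted p = 3.9e-04). For FOSL2, at 167 against 132 joint CPM, the log2 difference of 0.34 (standard error 0.042, edgeR adjusted p = 2.8e-06) shrank to 0.071 (adjusted p = 0.11) with library totals in place of TMM. FOSB was lower in HSC3 cells, at 1.53 against 2.96 joint CPM (log2 difference -0.96, standard error 0.23, edgeR adjusted p = 0.0018). JUND at 38.8 against 38.3 joint CPM and ATF3 at 7.26 against 6.85 joint CPM were not called, with log2 differences of 0.017 (standard error 0.11, edgeR adjusted p = 0.90) and 0.082 (standard error 0.13, edgeR adjusted p = 0.60) whose sign changed between scalings. The median of all genes was -0.12 on this scale and -0.39 with library totals, and the differences are read against that shift.

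**Figure D2:**
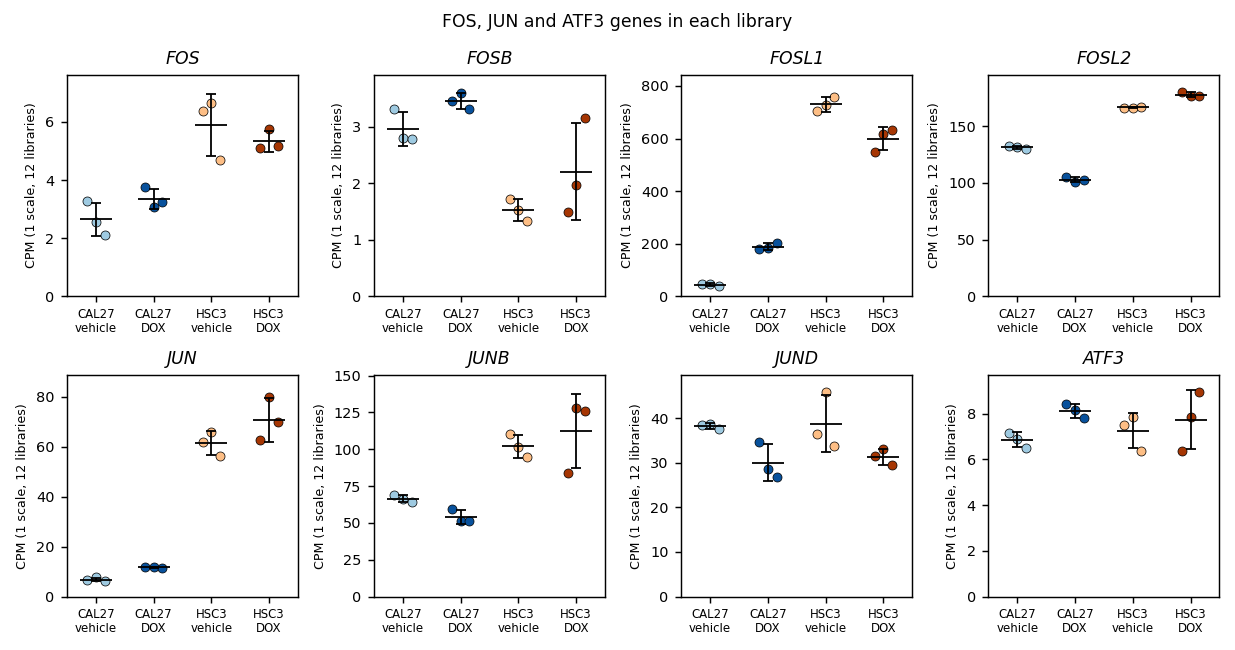
Each panel gives the joint CPM of 1 gene (y axis from 0, TMM normalization over all 12 libraries) in the 3 libraries of each group as points, with the group mean as a line and the SD as bars. FOSL1 and JUN are far higher in both HSC3 groups than in the CAL27 groups, and FOSL1 moves up with DOX in CAL27 and down in HSC3 cells.

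Per kb of summed exon length the genes differed widely in level. In vehicle-treated CAL27 cells JUNB came first at 36.4 ± 1.17 joint CPM per kb, followed by FOSL1 at 23.4 ± 2.36, JUND at 19.9 ± 0.337, FOSL2 at 18.4 ± 0.190, JUN at 1.88 ± 0.204, ATF3 at 1.71 ± 0.0821, FOS at 0.831 ± 0.182 and FOSB at 0.534 ± 0.0534 (SD, n = 3 each). The libraries of JUN and ATF3 overlapped in this order and those of the other neighbours did not. In DOX-treated CAL27 cells FOSL1 came first at 99.9 ± 6.91 joint CPM per kb, followed by JUNB at 29.5 ± 2.49, JUND at 15.6 ± 2.15, FOSL2 at 14.4 ± 0.277, JUN at 3.23 ± 0.0688, ATF3 at 2.03 ± 0.0774, FOS at 1.056 ± 0.108 and FOSB at 0.621 ± 0.0253 (SD, n = 3 each). JUND and FOSL2 were the only neighbours there whose libraries overlapped. In vehicle-treated HSC3 cells FOSL1 led at 387 ± 14.9 joint CPM per kb, ahead of JUNB at 55.8 ± 4.27, FOSL2 at 23.3 ± 0.103, JUND at 20.1 ± 3.29, JUN at 17.0 ± 1.35, FOS at 1.85 ± 0.334, ATF3 at 1.82 ± 0.193 and FOSB at 0.275 ± 0.0339 (SD, n = 3 each). The libraries of JUND overlapped those of FOSL2 and of JUN, and those of FOS and ATF3 overlapped. In DOX-treated HSC3 cells the order was FOSL1 at 318 ± 22.9 joint CPM per kb, JUNB at 61.5 ± 13.7, FOSL2 at 24.9 ± 0.312, JUN at 19.6 ± 2.42, JUND at 16.2 ± 0.916, ATF3 at 1.93 ± 0.323, FOS at 1.68 ± 0.115 and FOSB at 0.397 ± 0.153 (SD, n = 3 each), with an overlap of ATF3 and FOS alone. With the canonical transcript's length, an alternative chosen after seeing the data, ATF3 stood above JUN in both CAL27 groups and above FOS without overlap in both HSC3 groups. JUND and FOSL2 then overlapped in vehicle-treated CAL27 cells and no longer overlapped in vehicle-treated HSC3 cells.

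The makeup of the family shifted with FOSL1. In vehicle-treated CAL27 cells FOSL1 made up 21.2% to 23.8% of the summed level per kb of the 8 genes, and with DOX it made up 56.9% to 63.0%. In HSC3 cells it made up 75.1% to 78.3% with vehicle and 70.4% to 73.0% with DOX. The FOSL1 share with DOX in CAL27 cells therefore lay below that of both HSC3 groups. Within the FOS family, FOSL1 made up 51.8% to 55.7% with vehicle and 85.3% to 87.1% with DOX in CAL27 cells, and FOSL2 made up 40.7% to 45.3% and 11.6% to 13.1%. The FOS family as a whole was at 43.1 ± 2.76 joint CPM per kb with vehicle and 116 ± 6.84 with DOX in CAL27 cells (SD, n = 3 each). JUN family transcripts summed to 58.1 ± 1.48 and 48.3 ± 4.64 joint CPM per kb in the same libraries (SD, n = 3 each). In HSC3 cells the FOS family was at 412 ± 14.7 with vehicle and 345 ± 22.8 joint CPM per kb with DOX, and the JUN family at 92.9 ± 7.05 and 97.3 ± 15.9 (SD, n = 3 each). Among JUN family transcripts in CAL27 cells, JUNB remained the largest share at 62.0% to 63.3% with vehicle and 60.3% to 62.3% with DOX, and JUN itself made up 2.997% to 3.62% and 6.12% to 7.08%. In HSC3 cells JUN made up 17.8% to 18.7% with vehicle and 18.7% to 21.8% with DOX. These shares are descriptions over 3 libraries a group, and those of CAL27 cells rest on the values that chose the family.

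**Figure D3:**
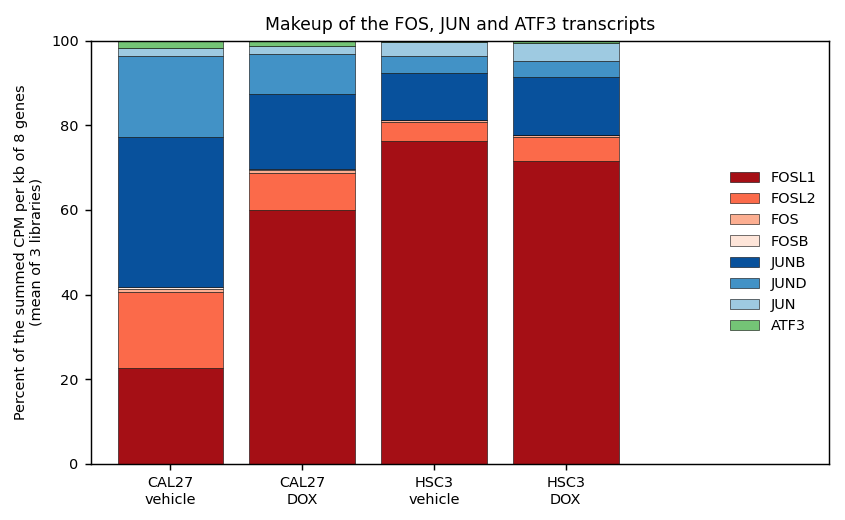
Stacked bars give the mean percent (y axis, 0 to 100, 3 libraries a group) that each gene made up of the summed joint CPM per kb of the 8 genes, with FOS family genes in red, JUN family genes in blue and ATF3 in green. FOSL1 goes from 22.7% to 60.1% with DOX in CAL27 cells and from 76.3% to 71.7% in HSC3 cells.

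Other zipper proteins that pair with AP-1 subunits or bind related motifs were counted next. Of 10 tested partners, 3 rose and 5 fell in CAL27 cells and 1 rose and 3 fell in HSC3 cells, with median log2 fold changes of -0.26 and -0.15. In CAL27 cells 22.6% of all genes were called higher and 21.8% lower, and in HSC3 cells 13% and 15.4%. ATF2, which pairs with JUN, fell in both lines, from 129 ± 1.99 to 75.6 ± 0.570 CPM in CAL27 cells (log2 fold change -0.78, edgeR adjusted p = 2.0e-12) and from 95.8 to 53.9 CPM in HSC3 cells (log2 fold change -0.83, edgeR adjusted p = 1.7e-05). JDP2, a JUN-binding repressor, also fell in both, with log2 fold changes of -0.57 in CAL27 and -0.69 in HSC3 cells (edgeR adjusted p = 2.2e-08 and 0.0053). ATF7, a close relative of ATF2, rose in HSC3 cells by 0.34 (edgeR adjusted p = 0.0076), and its log2 fold change in CAL27 cells was 0.047 (edgeR adjusted p = 0.44). Of the small MAF proteins, MAFG and MAFK rose in CAL27 cells by 0.39 and 0.30 on the log2 scale (edgeR adjusted p = 6.0e-07 and 7.7e-04), against 0.19 and 0.23 in HSC3 cells (edgeR adjusted p = 0.071 and 0.57). MAFF fell by 0.32 in HSC3 cells (edgeR adjusted p = 0.032) and rose by 0.49 in CAL27 cells (edgeR adjusted p = 4.8e-05). BATF had at most 3 counts in any library and was not tested.

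Kinases and factors upstream of AP-1 genes differed by less than 2-fold in both lines. Of 16 tested components of the MAPK cascades and of the serum response factors, 8 rose and 4 fell in CAL27 cells, with a median of 0.092. In HSC3 cells 6 fell and 10 did not pass the test, with a median of -0.097. The shares of all genes called higher and lower were 22.6% and 21.8% in CAL27 and 13% and 15.4% in HSC3 cells. MAP3K1, an upstream kinase of the JNK pathway, fell in both, from 81.2 to 45.7 CPM in CAL27 cells (log2 fold change -0.83, standard error 0.042, edgeR adjusted p = 3.1e-12) and from 58.7 to 32.8 CPM in HSC3 cells (log2 fold change -0.84, standard error 0.080, edgeR adjusted p = 2.2e-05). MAPK9, which encodes the kinase JNK2, fell by 0.28 in CAL27 and 0.87 in HSC3 cells on the log2 scale (edgeR adjusted p = 8.5e-06 and 1.7e-05). ELK4, a partner of serum response factor, fell by 0.19 and 0.70 (edgeR adjusted p = 7.7e-04 and 3.4e-05). The kinase gene MAP2K1 and the ETS factor gene ELK1 rose in CAL27 cells by 0.21 and 0.25 on the log2 scale (edgeR adjusted p = 2.3e-04 and 1.6e-04). In HSC3 cells MAP2K1 fell by 0.49 (edgeR adjusted p = 4.6e-04), and ELK1 had a log2 fold change of -0.065 (edgeR adjusted p = 0.63). The calls of this list in CAL27 cells numbered 7 rather than 12 when all 12 libraries were fitted together.

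Most genes whose transcription is known to follow ERK activity rose in CAL27 cells. Of 13 such genes, 11 rose and 1 fell in CAL27 cells with a median log2 fold change of 0.82, and 5 rose and 2 fell in HSC3 cells with a median of 0.13. For comparison, 22.6% of all CAL27 genes tested were called higher and 21.8% lower, against 13% and 15.4% for HSC3. The all-gene medians were -0.0052 for CAL27 and -0.0097 for HSC3. Like the other lists, this one was drawn up with earlier results of these data known, and its counts carry that limit. DUSP4, an ERK phosphatase, measured 6.33, 6.36 and 4.91 CPM with vehicle and 17.5, 19.1 and 22.8 CPM with DOX in CAL27 cells. Its groups did not overlap, and it rose by 1.75 on the log2 scale (standard error 0.11, edgeR adjusted p = 4.7e-08). CCND1, the G1 cyclin gene, measured 337, 335 and 306 CPM with vehicle and 817, 836 and 919 CPM with DOX. It rose by 1.39 (edgeR adjusted p = 9.0e-14, standard error 0.049). ETV5, an ETS factor, rose by 1.21 in CAL27 cells (standard error 0.048, edgeR adjusted p = 8.6e-14). DUSP4 and ETV5 rose in HSC3 cells too, by 0.29 and 0.21 (edgeR adjusted p = 0.0063 and 0.047). The well-counted genes of this list with the largest increases in HSC3 cells were DUSP5, CCND1 and SPRY2, at 0.91, 0.55 and 0.53 on the log2 scale (edgeR adjusted p = 5.4e-06, 4.0e-05 and 0.0035). DUSP5 also rose in CAL27 cells, by 1.19 (edgeR adjusted p = 2.0e-13), and SPRY2 was at -0.029 there (edgeR adjusted p = 0.86). PHLDA1 fell by 0.36 in HSC3 cells (edgeR adjusted p = 0.0010) and rose by 0.82 in CAL27 cells (edgeR adjusted p = 3.2e-12). EPHA4, a receptor gene named here after its values were seen, fell by 1.20 in CAL27 and 0.96 in HSC3 cells (edgeR adjusted p = 8.2e-09 and 0.026). The RNA of these genes was measured, and ERK activity was not.

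Among immediate early genes outside the AP-1 families, more were called higher than lower in both lines. Of 18 tested, 10 rose and 2 fell in CAL27 cells and 7 rose and 1 fell in HSC3 cells, with medians of 0.24 and 0.13. Of all CAL27 genes tested, 22.6% were called higher and 21.8% lower, and of all HSC3 genes 13% and 15.4%. CCN1 and CCN2, matricellular genes also known as targets of YAP, carried the largest increases among well-counted genes of this list. CCN1 measured 46.3, 45.8 and 40.9 CPM with vehicle and 166, 160.2 and 165 CPM with DOX in CAL27 cells. It rose by 1.89 on the log2 scale there (edgeR adjusted p = 1.8e-16) and by 2.03 in HSC3 cells (edgeR adjusted p = 2.0e-07), where the libraries went from 187 to 224 CPM up to 751 to 914 CPM. CCN2 rose by 1.07 in CAL27 cells (edgeR adjusted p = 5.8e-09) and by 1.81 in HSC3 cells (edgeR adjusted p = 1.4e-07). EGR1, a growth factor response gene, rose in CAL27 cells from 43.0 to 58.4 CPM (log2 fold change 0.44, edgeR adjusted p = 6.1e-08) and fell in HSC3 cells from 224 to 162 CPM (log2 fold change -0.47, edgeR adjusted p = 0.0083). IER5 rose in HSC3 cells by 0.53 (edgeR adjusted p = 9.5e-04), and BTG2, an antiproliferative gene, fell in CAL27 cells by 0.39 on the log2 scale (edgeR adjusted p = 2.5e-04). The log2 fold change of IER5 was 0.24 in CAL27 cells (edgeR adjusted p = 0.0017) and that of BTG2 was -0.095 in HSC3 cells (edgeR adjusted p = 0.62). The list held 6 calls in CAL27 cells, in place of 12, with 1 fit over all 12 libraries, and 5 in place of 8 in HSC3 cells without vehicle replicate 3.

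Of 28 genes known as AP-1 targets, 27 were tested in each line. In CAL27 cells 12 rose and 10 fell with a median log2 fold change of 0.059. In HSC3 cells 6 rose and 16 fell with a median of -0.44. As shares of all genes tested, 22.6% were called higher and 21.8% lower in CAL27, and 13% and 15.4% in HSC3 cells. CCND1 is counted both here and among the ERK-responsive genes. Matrix metalloproteinase genes had the largest falls in CAL27 cells. MMP1, the interstitial collagenase, measured 491, 507 and 543 CPM with vehicle and 53.2, 41.1 and 30.3 CPM with DOX in CAL27 cells. In these libraries it fell by 3.63 on the log2 scale (standard error 0.24, edgeR adjusted p = 3.4e-04) and by 1.63 in HSC3 cells (standard error 0.061, edgeR adjusted p = 6.5e-08). MMP10, encoding stromelysin-2, measured 331, 374 and 354 CPM with vehicle and 33.4, 20.6 and 13.4 CPM with DOX in CAL27 cells. MMP10 fell by 3.98 there (standard error 0.39, edgeR adjusted p = 0.0013), and in HSC3 cells, with 222 to 1644 counts, it fell by 2.71 (standard error 0.17, edgeR adjusted p = 1.2e-06). MMP13, a further collagenase gene, fell in CAL27 cells from 1221 to 257 CPM (log2 fold change -2.25, edgeR adjusted p = 1.2e-11). In HSC3 cells, with only 48 to 210 counts, MMP13 fell from 1.42 to 0.508 CPM (log2 fold change -1.48, edgeR adjusted p = 0.018). CXCL8, the neutrophil chemokine gene, fell in HSC3 cells by 0.75 and PDPN, encoding podoplanin, by 2.46 on the log2 scale (edgeR adjusted p = 6.9e-04 and 2.9e-06). Both also fell in CAL27 cells, by 1.45 and 0.39 (edgeR adjusted p = 7.9e-04 and 1.9e-06).

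Other AP-1 targets rose. F3, encoding tissue factor, measured 610, 616 and 534 CPM with vehicle and 1406, 1494 and 1544 CPM with DOX in CAL27 cells. It rose by 1.34 on the log2 scale there (standard error 0.053, edgeR adjusted p = 1.2e-12) and by 0.21 in HSC3 cells (edgeR adjusted p = 0.034). EZR, encoding the membrane linker ezrin, rose from 566 to 1079 CPM in CAL27 cells (log2 fold change 0.93, edgeR adjusted p = 2.4e-13) and from 566 to 804 CPM in HSC3 cells (log2 fold change 0.51, edgeR adjusted p = 3.8e-05). PLAUR, the urokinase receptor gene, rose by 0.44 in HSC3 and 0.72 in CAL27 cells (edgeR adjusted p = 0.0036 and 6.0e-07). Promoter windows were matched for 18 of the 28 genes, and 9 of these 18 held TGANTCA. Windows of a gene that fell in both lines and of genes that rose in both are shown to set matches of this pattern beside opposite changes. The matches differ in the central base, which is A in MMP10, C in EZR, and A and G in F3. In capitals is TGANTCA, at base -67 of MMP10 (chr11:102780643-102780742, minus strand), base -56 of EZR (chr6:158818239-158818338, minus strand), and bases -223 and -210 of F3 (chr1:94541910-94542009, minus strand), all RefSeq GRCh38.p14.
MMP10: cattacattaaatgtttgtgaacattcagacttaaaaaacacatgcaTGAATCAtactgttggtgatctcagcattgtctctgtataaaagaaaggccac
EZR: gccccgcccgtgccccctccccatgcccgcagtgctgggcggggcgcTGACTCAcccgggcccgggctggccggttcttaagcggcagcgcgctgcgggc
F3: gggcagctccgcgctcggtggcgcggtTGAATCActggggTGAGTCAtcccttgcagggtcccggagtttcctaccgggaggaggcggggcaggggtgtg

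ATF3 is also a gene of the integrated stress response, and 12 other genes of that response were tested. Of these, 2 rose and 7 fell in CAL27 cells, and 7 fell and 5 did not pass the test in HSC3 cells, with medians of -0.26 and -0.52. Among all genes tested, the called shares were 22.6% higher and 21.8% lower for CAL27, and 13% and 15.4% for HSC3. VLDLR, a lipoprotein receptor gene, fell in both lines, by 1.12 in CAL27 and 1.13 in HSC3 cells on the log2 scale (edgeR adjusted p = 9.8e-11 and 2.1e-05). PHGDH, of serine synthesis, and DDIT4, an inhibitor of mTORC1, fell in CAL27 cells by 0.86 and 0.66 (edgeR adjusted p = 6.4e-12 and 0.020), and PPP1R15A and SESN2, both stress-induced, rose by 0.35 and 0.24 (edgeR adjusted p = 3.7e-06 and 0.021). In HSC3 cells DDIT4 fell by 0.50 (edgeR adjusted p = 0.0052), and PHGDH, PPP1R15A and SESN2 were at -0.11, 0.11 and -0.34 (edgeR adjusted p = 0.42, 0.29 and 0.11). TRIB3 and SLC7A11 fell in HSC3 cells by 0.78 and 0.69 (edgeR adjusted p = 3.5e-05 and 3.8e-04) and in CAL27 cells by 0.14 and 0.32 (edgeR adjusted p = 0.038 and 5.5e-04). Of 6 listed heat shock genes, HSPA1A and HSPA1B had at most 16 counts in any library and were not tested. Of the 4 tested, 4 rose in CAL27 and 3 in HSC3 cells. HSPH1 led at 0.53 in CAL27 and DNAJB1 at 0.41 in HSC3 cells on the log2 scale (edgeR adjusted p = 1.6e-09 and 5.3e-04).

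**Figure D4:**
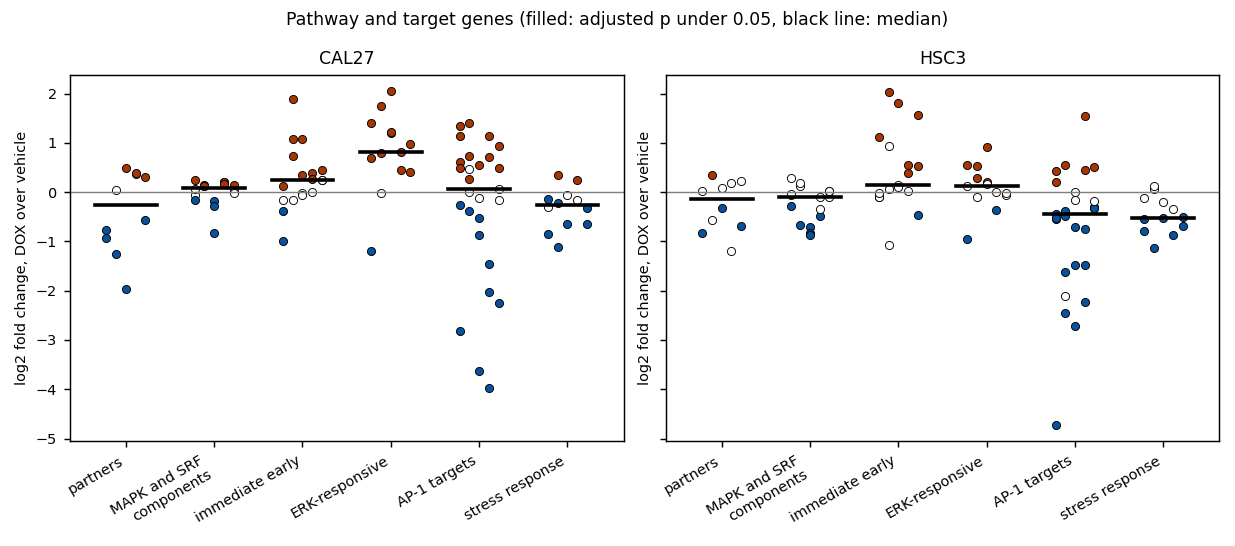
Each point is the log2 fold change with DOX over vehicle (y axis) of 1 tested gene of 6 lists in CAL27 cells (left) and HSC3 cells (right), filled where the edgeR adjusted p was under 0.05, with the list's median as a black line. The ERK-responsive median is 0.82 in CAL27 and 0.13 in HSC3 cells, and the AP-1 target median is 0.059 and -0.44.

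Squamous epithelial markers moved with DOX beside these changes. As a background, the tests called 22.6% of all CAL27 genes higher and 21.8% lower, around a median log2 fold change of -0.0052. The matching HSC3 values were 13% higher, 15.4% lower and a median of -0.0097. Of the 8 markers, 1 rose and 6 fell in each line, and the median log2 fold changes were -1.03 and -0.87. Their summed level went from 6991 to 7183 CPM down to 3272 to 3473 CPM in CAL27 cells and from 5373 to 5968 CPM down to 2418 to 2854 CPM in HSC3 cells. The fall lay in keratins, TP63 and DSG3, and the pan-epithelial gene CDH1 had log2 fold changes of 0.033 and -0.019 (edgeR adjusted p = 0.52 and 0.87). EPCAM rose by 0.40 and 0.87 (edgeR adjusted p = 6.7e-06 and 2.8e-05). Their part in the changes of AP-1 genes was not tested.

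The genes whose pattern was most like that of FOSL1 were sought by Pearson's r of log2 CPM centred within each line over the 12 libraries, among 8630 genes, as a description. They were NKX1-2 at r = 0.994, SLC43A3 at 0.992, LAMC1 at 0.991, NUP188 at 0.989 and DHX15 at 0.987, and their log2 fold changes were 0.29 to 1.08 in CAL27 and -0.16 to -0.055 in HSC3 cells. The 12 points of each correlation share their depth and fall into treatment groups. FOSL1 changed most in CAL27 cells (log2 fold change 2.09 against -0.29 in HSC3 cells). The r values therefore rest mainly on the CAL27 contrast that chose the family, and nothing further is read from them.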

How the data were processed

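The authors deposited 1 table of raw counts per cell line, with 39368 gene symbols. Per the labels and the submitters' processing notes, RNA was extracted with TRIzol and made into TruSeq Stranded mRNA libraries, and STAR 2.7.9a (GRCh38) and featureCounts of Subread 2.0.1 are named. The strand setting, duplicate handling and annotation are not given in the sources used here. CAL27 DOX columns carry no replicate number and were mapped to their group only. Library totals are in the report, and p-values measure the spread between cultures in triplicate.

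Each line was fitted in R 4.3.3 with edgeR 4.0.16 (TMM, filterByExpr with a minimum count of 10 and total of 15, robust glmQLFit, two-sided glmQLFTest), leaving 19239 genes in CAL27 and 18021 in HSC3 cells. The vehicle groups were compared in 1 fit of 12 libraries. P-values were Benjamini-Hochberg adjusted over all genes tested and called under 0.05, and the study's FC>2 was set beside them. The study used DESeq2, run here (1.42.0) as an alternative. Of 200 genes changed by 1.5 on the log2 scale in simulated counts, 100% were recovered in each line, over 19239 and 18021 genes. Of the unchanged genes 11 and 5 were called. The changed genes were not low in counts, and 1 spread was used for all genes, without repeated counts per molecule. Changes of the 8 genes in HSC3 cells were smaller, at most 0.53 in size, so the simulation does not show that such changes would be found. Counts per molecule were estimated from genes with an expected count of 8 to 16 that had none, an estimate that ran high on simulated libraries.

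The members and lists were chosen with earlier results of these data known. Named list genes are, in each line, the 3 called genes with the largest change in each direction whose log2 CPM averaged 3 or more, and the other line's value. Coordinates and lengths are from GENCODE v44, and promoters from RefSeq GRCh38.p14. Alternatives covered normalization, filter, tool, fit, replicate block, counts per molecule, thresholds and each library left out. Some genes of the lists are counted but not reported here by name.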

Additional observations from a re-analysis of the deposited data

Results flagged for a closer look

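Among the members and named list genes, 7 had all DOX libraries above all vehicle libraries in 1 line and below them in the other. The difference between the lines was not tested for any of the 7. How many of all genes had such opposite changes was not computed. Groups did not overlap, in either direction, for 52.4% of all genes in CAL27 and 42.6% in HSC3 cells. Given as HSC3 minus CAL27 log2 fold change, the difference was -2.38 for FOSL1 (2.09 in CAL27 and -0.29 in HSC3 cells) and 0.45 for FOSL2 (-0.36 and 0.091). Among the named genes of the lists it was -1.18 for PHLDA1 (0.82 and -0.36), -0.91 for EGR1 (0.44 and -0.47), -0.81 for MAFF (0.49 and -0.32), -0.70 for MAP2K1 (0.21 and -0.49) and -0.58 for SESN2 (0.24 and -0.34). Of these 7 genes, FOSL2 and SESN2 did not pass the threshold in HSC3 cells, and the FOSL1 and FOSL2 values of CAL27 cells took part in the choice of the family or belong to its contrast.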

How the results depend on the processing

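In HSC3 cells 1 of the 8 genes was called. It was 2, with JUND joining FOSL1, without a filter on low counts, with DESeq2, with 1 fit over all 12 libraries and with counts divided by counts per molecule, 0 with a 2-fold threshold added, and 1 to 5 with each library left out. The share of all genes called with a library left out was not computed. Without HSC3 vehicle replicate 3 the 1 call was JUND (-0.39, adjusted p = 0.044) and no longer FOSL1 (-0.25, adjusted p = 0.056). In CAL27 cells 1 gene passed 2-fold and 2 passed 1.5-fold. Between the vehicle groups 5 of 7 were called under every alternative, but with library totals JUND (-0.25) replaced FOSL2. The other JUND differences that changed sign were -0.030 with DESeq2 size factors, -0.029 with DESeq2, -0.0095 without a filter, -0.018 with counts per molecule, and -0.12 to 0.095 with each library left out. ATF3 changed sign between lines with library totals (-0.19). Its DOX change in HSC3 cells was -0.032 to 0.21 with each library left out, and negative without DOX replicate 3. With 1 fit over all 12 libraries the calls in CAL27 cells were 7 of the MAPK list and 6 of the immediate early list. With each library left out, immediate early calls in HSC3 cells were 5 to 8. The cause was not tested. The replicate number as a block gave 2 calls among the 8 genes in HSC3 cells in place of 1, but same-numbered samples did not deviate together (correlations -0.096, 0.10 and -0.093), and CAL27 DOX columns carry no number. FOS and FOSB in HSC3 cells stand on 125 to 776 counts and on fewer molecules, which limits what could be detected.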
